A study of Harpegnathos saltator with 32 samples.

Results

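The genes described here are 5 members of the light-sensing pathway of insect photoreceptors, measured in single brains of the ant Harpegnathos saltator. They are Arr1 (LOC105188953), Arr2 (LOC105180659), ninaC (LOC105189317), chp (LOC105190596) and trp (LOC105185238), chosen by identifier out of the 14001 genes in the deposited table. The symbols come from the RefSeq annotation of this ant, and the roles given below are known from Drosophila. Each library held polyadenylated RNA from the dissected central brain of 1 ant. Ants were taken on day 10, and brains were collected 10 h after dicer-substrate siRNA had been injected into the head. There were 8 gamergates with siRNA against Kr-h1, 9 gamergates with the GFP control siRNA, 7 workers with siRNA against Kr-h1 and 8 workers with the GFP control siRNA. Gamergates are workers that have turned reproductive, here labelled as duelers, and Kr-h1 is a transcription factor gene that responds to juvenile hormone. The control is written GFP in the sample titles and GRP in the protocol text. All ants were injected, so no group shows the level of an untouched brain, and the colony of each ant is not given in the sources used here.

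In a fly photoreceptor, light turns rhodopsin into metarhodopsin, which switches on a Gq protein and phospholipase C and so opens TRP channels in the plasma membrane. Arrestins then bind metarhodopsin and end its signalling, and light-driven transport brings arrestin into the rhabdomere, the stack of microvilli that holds rhodopsin. Arr2 encodes the more abundant arrestin of fly photoreceptors and Arr1 the less abundant one. ninaC encodes a class III myosin with a kinase domain that sits in the rhabdomere, chp encodes chaoptin, an adhesion protein that holds the microvilli together, and trp encodes the founding TRP channel.

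Library depth, counted as reads recovered from the deposited values, was 7.75 to 23.8 M (median 13.2 M). The libraries came from injection rounds 2 and 3, with 17 and 15 libraries. Round 2 gamergates were the only libraries on run 200508, and all others were on run 200626. Caste and run are therefore separable in round 3 alone. Kr-h1, the targeted gene, averaged 0.443 ± 0.291 FPKM in gamergates with Kr-h1 siRNA (SD, n = 8) and 1.83 ± 2.28 FPKM in gamergates with GFP siRNA (SD, n = 9). In workers it averaged 0.438 ± 0.187 FPKM with Kr-h1 siRNA (SD, n = 7) and 0.910 ± 0.700 FPKM with GFP siRNA (SD, n = 8). The ranges of the Kr-h1 siRNA and GFP siRNA groups overlapped in both castes. In round 2 gamergates, Kr-h1 was at 0.114 to 1.01 FPKM with Kr-h1 siRNA and at 0.995 to 7.57 FPKM with GFP siRNA. In round 3 gamergates the groups were closer, at 0.278 to 0.627 and 0.480 to 0.809 FPKM in the same order. Kr-h1 did not pass the filter on low values (below), so limma's main fit did not test it. Defining markers of brain tissue were present in every library, with nSyb, a synaptic vesicle gene, at 137 to 305 FPKM and repo, the glial homeobox gene, at 22.1 to 40.0 FPKM.

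All 5 genes were detected in every one of the 32 libraries and passed the filter on low values. FPKM (fragments per kilobase of gene model, scaled for depth) is a level per length, so levels can be set side by side between genes. Arr2 was the most abundant with a mean of 292 FPKM over the 32 libraries, followed by Arr1 at 42.1 FPKM, chp at 4.58 FPKM, ninaC at 1.5 FPKM and trp at 1.12 FPKM. The order of the arrestins was the same in every library, with the level of Arr1 at 0.0384 to 0.276 of that of Arr2. At the low end the values rested on few reads, down to 6 reads for ninaC, 35 for Arr1, 52 for trp and 64 for chp, while Arr2 had at least 697 reads in every library. FPKM of at least 1 was reached in 32 libraries by Arr1 and Arr2, in 31 by chp, in 18 by trp and in 17 by ninaC.

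The main feature of Arr2, Arr1, ninaC and chp was their spread between brains of the same group. Over all libraries Arr1 ranged 76.7-fold, ninaC 53.0-fold, Arr2 25.2-fold and chp 12.1-fold, whereas trp ranged 4.31-fold. With the mean of each group and round removed, the SD between brains on the log2(FPKM + 0.5) scale was 1.96 for Arr1, 1.69 for Arr2, 1.01 for ninaC, 0.88 for chp and 0.19 for trp, against a median of 0.24 over 9433 genes. In the order of this SD, Arr1 was number 20 of the 9433 genes, Arr2 number 31, ninaC number 158, chp number 214 and trp number 6720. The pseudocount lowers this SD for genes near 1 FPKM, which touches ninaC and trp most. In whole-tissue RNA, fewer cells of a type and less RNA per cell cannot be told apart.

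Arr1 ran from 1.29 FPKM over a median of 30.2 to 87.6 FPKM in gamergates with Kr-h1 siRNA, and from 3.73 over 77.6 to 98.7 FPKM in gamergates with GFP siRNA. In workers it ran from 1.55 over 53.2 to 91.5 FPKM with Kr-h1 siRNA and from 2.05 over 14.7 to 65.5 FPKM with GFP siRNA. Brains with very low and with high Arr1 were therefore found in all 4 groups, and the ranges of the groups overlapped. The median of gamergates with GFP siRNA (77.6 FPKM) nevertheless lay above the highest worker with GFP siRNA (65.5 FPKM).

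Arr2 ran from 33.5 over a median of 178 to 479.8 FPKM in gamergates with Kr-h1 siRNA, and from 32.1 over 397 to 626 FPKM in gamergates with GFP siRNA. Workers ranged from 25.7 over 500.3 to 559 FPKM with Kr-h1 siRNA and from 42.2 over 220.5 to 647 FPKM with GFP siRNA. Each group held brains at both ends, with lowest values of 25.7 to 42.2 FPKM and highest values of 479.8 to 647 FPKM. The ranges of the groups overlapped, but the median of workers with Kr-h1 siRNA (500.3 FPKM) lay above the highest gamergate with that siRNA (479.8 FPKM).

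ninaC ran from 0.113 over a median of 0.719 to 2.61 FPKM in gamergates with Kr-h1 siRNA, and from 0.164 over 2.75 to 3.58 FPKM in gamergates with GFP siRNA. In workers it ran from 0.0675 over 1.96 to 3.39 FPKM with Kr-h1 siRNA and from 0.202 over 0.762 to 3.41 FPKM with GFP siRNA. The myosin gene was highest at the median in gamergates with GFP siRNA, although the brain with the highest value in each group lay within 2.61 to 3.58 FPKM.

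chp ran from 1.39 over a median of 4.07 to 8.00 FPKM in gamergates with Kr-h1 siRNA, and from 1.17 over 7.67 to 9.65 FPKM in gamergates with GFP siRNA. Its range in workers was from 1.40 over 5.17 to 9.01 FPKM with Kr-h1 siRNA and from 0.796 over 2.45 to 6.45 FPKM with GFP siRNA. The same brain was the lowest of its group for Arr1, Arr2, ninaC and chp alike: replicate 1 of the gamergates with Kr-h1 siRNA, replicate 5 of the gamergates with GFP siRNA, replicate 3 of the workers with Kr-h1 siRNA and replicate 5 of the workers with GFP siRNA.

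trp behaved otherwise. It ran from 0.984 over a median of 1.22 to 1.51 FPKM in gamergates with Kr-h1 siRNA, and from 0.806 over 1.17 to 2.37 FPKM in gamergates with GFP siRNA. In workers it ran from 0.657 over 0.950 to 1.30 FPKM with Kr-h1 siRNA and from 0.550 over 0.856 to 1.45 FPKM with GFP siRNA. The brain lowest in the arrestins was not the lowest in trp in any group.

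**Figure D1:**
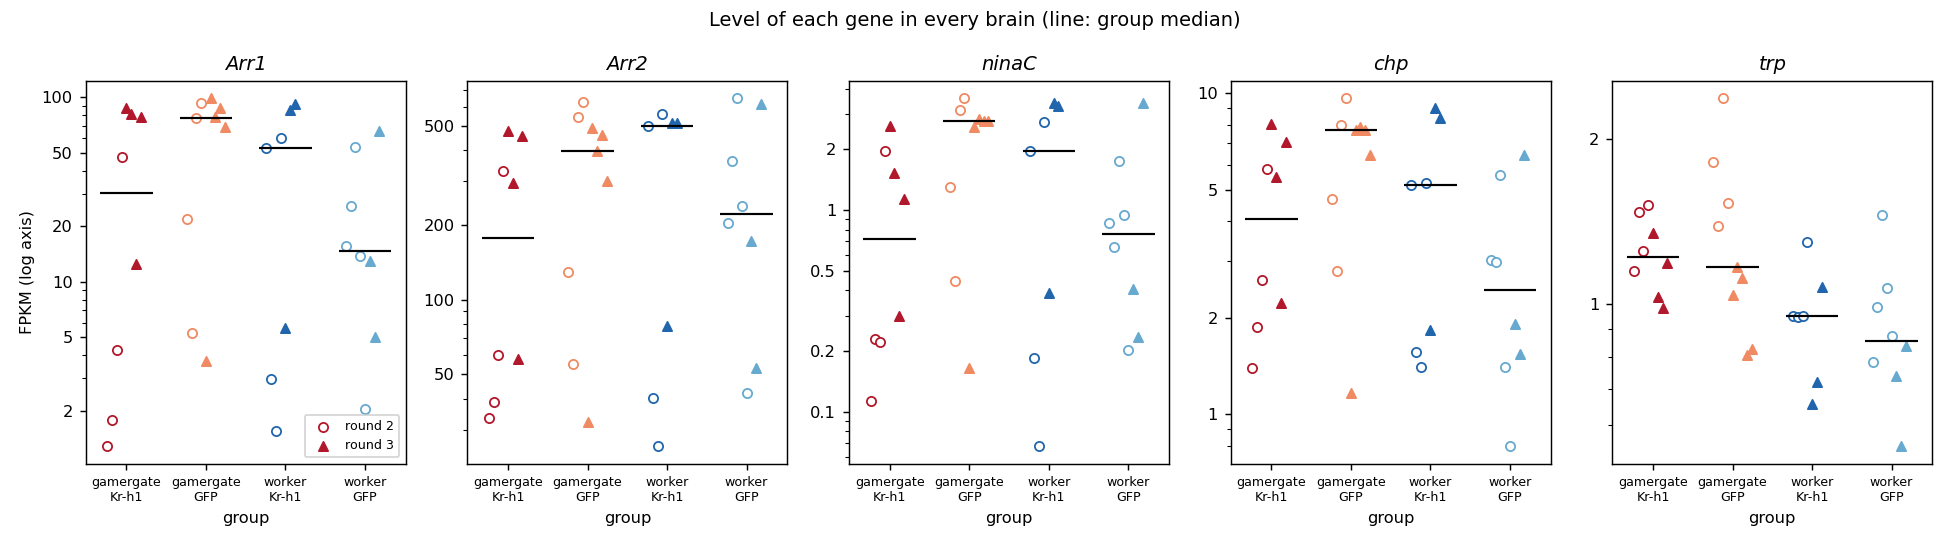
Level of each gene in FPKM (log axis) in each of the 32 brains, by group, with round 2 as open circles and round 3 as filled triangles; the line is the group median. Arr1, Arr2, ninaC and chp spread from low to high within every group, while trp stays between 0.550 and 2.37 FPKM.

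By mean level, the order of the groups was gamergates with GFP siRNA, workers with Kr-h1 siRNA, gamergates with Kr-h1 siRNA and workers with GFP siRNA for Arr1 and chp. For Arr1 the means were 59.6 ± 38.3, 42.8 ± 39.2, 39.4 ± 38.7 and 24.3 ± 23.2 FPKM in that order (SD, n = 9, 7, 8 and 8). For chp they were 6.21 ± 2.77, 4.66 ± 3.2, 4.31 ± 2.57 and 2.96 ± 2.04 FPKM in the same order. Each neighbouring pair of means lay closer together than 1 SD of either group. The first and last means of chp lay further apart than the SD of either of those groups. An SD describes the spread of brains, not the error of a mean, so these distances are no test.

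For ninaC and Arr2 the first 2 places were the same and the last 2 changed places. The means of ninaC were 2.18 ± 1.22 FPKM in gamergates with GFP siRNA, 1.71 ± 1.48 FPKM in workers with Kr-h1 siRNA, 1.06 ± 1.07 FPKM in workers with GFP siRNA and 1.01 ± 0.949 FPKM in gamergates with Kr-h1 siRNA. The means of Arr2 were 337 ± 219.5, 319 ± 255, 291 ± 232 and 219 ± 193 FPKM in that order of groups. trp had the 2 gamergate groups on top, at 1.34 ± 0.506 FPKM with GFP siRNA and 1.24 ± 0.193 FPKM with Kr-h1 siRNA, above the workers at 0.942 ± 0.214 FPKM with Kr-h1 siRNA and 0.911 ± 0.268 FPKM with GFP siRNA. Neighbours in these orders also lay closer together than 1 SD of either group, except in trp. There the step between gamergates and workers with Kr-h1 siRNA was larger than either group's SD.

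The knockdown was first asked about within each caste. In workers, none of the 5 genes passed limma's test at an adjusted p under 0.05, where 0% of the 9433 genes tested passed (0 called, with 1618 at an unadjusted p under 0.05, and 0 called by limma voom on recovered reads). The log2 difference of Kr-h1 siRNA minus GFP siRNA was 0.26 ± 0.95 for Arr1 (SE; 95% interval -1.69 to 2.21), -0.18 ± 0.81 for Arr2 and 0.33 ± 0.48 for ninaC. It was 0.49 ± 0.43 for chp and 0.05 ± 0.12 for trp, with an interval of -0.18 to 0.29. The interval of Arr1 thus spans from a fold of 0.310 to one of 4.62, while that of trp spans 0.880 to 1.23.

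In gamergates, 0 of the 5 genes passed, where 0.721% of all genes tested did (limma, 68 genes; none of the 5 passed with voom either). All 5 differences were below 0, at -1.08 ± 0.90 for Arr1, -0.76 ± 0.76 for Arr2, -0.84 ± 0.45 for ninaC, -0.49 ± 0.40 for chp and -0.07 ± 0.11 for trp (SE). The smallest adjusted p of these was 0.229, for ninaC, with an interval of -1.77 to 0.08. Arr1, Arr2, ninaC and chp moved together between brains (below), so their shared sign is not 4 separate observations.

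The gamergate values differed between the rounds. In round 2, Arr1 was at 1.29, 1.79, 4.3 and 47.8 FPKM with Kr-h1 siRNA, and at 5.31, 21.9, 77.6 and 93.6 FPKM with GFP siRNA. Arr2 was at 33.5, 38.6, 60.2 and 329 FPKM with Kr-h1 siRNA, and at 55.0, 129, 542 and 626 FPKM with GFP siRNA. In both genes 3 of the 4 Kr-h1 siRNA brains were low, and 1 brain for Arr1 and 2 brains for Arr2 lay within the range of the GFP siRNA brains.

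ninaC in the same round was at 0.113, 0.221, 0.230 and 1.97 FPKM with Kr-h1 siRNA, and at 0.444, 1.31, 3.14 and 3.58 FPKM with GFP siRNA. The log2 differences in round 2 were -2.49 for Arr1, -1.63 for Arr2, -1.25 for ninaC, -1.01 for chp and -0.29 for trp. Exact two-sided permutation tests of 4 against 4 brains gave p of 0.114 to 0.2 for these, and the smallest p such a test allows is 0.0286. The groups overlapped for all 5 genes.

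In round 3, Arr1 was at 12.6, 78.3, 81.5 and 87.6 FPKM with Kr-h1 siRNA, and at 3.73, 69.5, 78.5, 87.6 and 98.7 FPKM with GFP siRNA. Arr2 was at 57.9, 295, 455 and 479.8 FPKM with Kr-h1 siRNA, and at 32.1, 299, 397, 461.5 and 489.8 FPKM with GFP siRNA. Each group here held 1 low brain and otherwise high ones. The log2 differences were 0.19 for Arr1, 0.02 for Arr2, -0.48 for ninaC, -0.02 for chp and 0.14 for trp, with exact permutation p of 0.222 to 0.984. The signs of Arr1, Arr2 and trp were thus opposite in the 2 rounds, and whether the rounds differ was not tested. Over the 30 within-round tests of the family, no adjusted p was below 0.833.

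Whether the knockdown acted differently in the 2 castes was read from the interaction term. The difference of gamergates minus workers was -1.34 ± 1.31 for Arr1, -0.58 ± 1.11 for Arr2, -1.17 ± 0.66 for ninaC, -0.98 ± 0.59 for chp and -0.12 ± 0.16 for trp (SE). None of the 5 passed, where 16.5% of all genes tested passed (1554 genes, limma; voom also called none of the 5). The lowest adjusted p was 0.202, for ninaC, with an interval of -2.53 to 0.18. With round 2 alone, with round 3 alone or without the batch term, limma called 0 genes in this comparison.

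Castes were compared under each siRNA. With GFP siRNA, gamergates minus workers gave 1.58 ± 1.15 for Arr1, 0.40 ± 0.98 for Arr2, 0.72 ± 0.58 for ninaC, 0.86 ± 0.52 for chp and 0.36 ± 0.14 for trp (log2, SE). None of the 5 passed, where 1.33% of all genes tested passed (125 genes, limma; none of the 5 with voom). trp came nearest, with an interval of 0.07 to 0.65, an unadjusted p of 0.0159 and an adjusted p of 0.146, and it was the only one of the 25 gene and comparison pairs with an unadjusted p under 0.05. Without the batch term both chp (1.00, adjusted p = 0.0431) and trp (0.36, adjusted p = 0.0339) passed limma's test, in a fit that also called 4436 genes.

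For trp, the values in round 3, where both castes were on the same run, were 0.806, 0.827, 1.04, 1.12 and 1.17 FPKM in gamergates with GFP siRNA, and 0.550, 0.740 and 0.839 FPKM in workers with GFP siRNA. Of the gamergates, 3 lay above every worker and 2 lay within the workers' range. The log2 difference was 0.30 with an exact permutation p of 0.107, where 5 against 3 brains allow no p below 0.0357. With Kr-h1 siRNA the round 3 values were 0.984, 1.03, 1.19 and 1.35 FPKM in gamergates, and 0.657, 0.719 and 1.08 FPKM in workers, a log2 difference of 0.32 (exact permutation p = 0.171).

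In round 2, trp was at 1.15, 1.25, 1.47 and 1.51 FPKM in gamergates with Kr-h1 siRNA and at 1.39, 1.53, 1.82 and 2.37 FPKM in gamergates with GFP siRNA. Workers of round 2 were at 0.945, 0.950, 0.952 and 1.30 FPKM with Kr-h1 siRNA and at 0.782, 0.874, 0.985, 1.07 and 1.45 FPKM with GFP siRNA. The round 2 gamergates were on a sequencing run of their own, so caste and run cannot be told apart in these values.

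With Kr-h1 siRNA, gamergates minus workers gave 0.24 ± 1.19 for Arr1, -0.18 ± 1.01 for Arr2, -0.46 ± 0.60 for ninaC, -0.11 ± 0.53 for chp and 0.24 ± 0.15 for trp (log2, SE). None of the 5 passed, where 0.17% of all genes tested passed (16 genes, limma; none of the 5 with voom), and the adjusted p ran from 0.426 for trp to 0.951 for Arr2. The comparisons above share groups with each other, so their values are not independent.

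**Figure D2:**
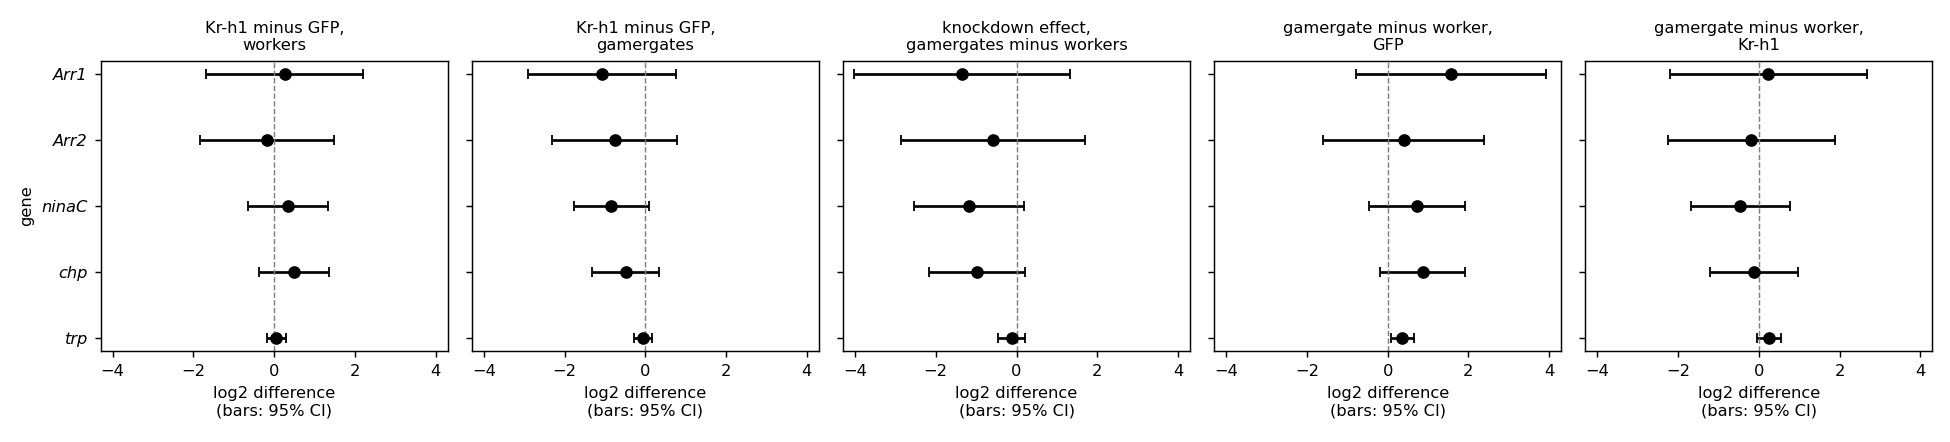
Log2 difference of each gene in the 5 comparisons, on the log2(FPKM + 0.5) scale, with 95% confidence intervals from limma. The intervals of Arr1 and Arr2 are several log2 units wide in each comparison, and the interval of trp for gamergate minus worker with GFP siRNA, 0.07 to 0.65, is the only one clear of 0.

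The 4 genes with a wide spread varied together from brain to brain. With group-by-round means removed, Pearson's r over the 32 libraries was 0.988 between Arr1 and Arr2, 0.963 between Arr1 and ninaC, 0.964 between Arr1 and chp, 0.955 between Arr2 and ninaC, 0.954 between Arr2 and chp, and 0.948 between ninaC and chp. Spearman's rho lay between 0.951 and 0.979. All 6 had a permutation p of 1e-05, the smallest that 100000 within-group shuffles can give, and an adjusted p of 2e-05 over the 10 pairs. Without the 2 libraries farthest from the median of the first gene, r was 0.932 to 0.984.

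The relation held within each group, with r of 0.933 to 0.990 over 8 gamergates with Kr-h1 siRNA, 0.981 to 0.995 over 9 gamergates with GFP siRNA, 0.950 to 0.995 over 7 workers with Kr-h1 siRNA and 0.877 to 0.993 over 8 workers with GFP siRNA. It held within round 2 (r of 0.915 to 0.991) and round 3 (0.948 to 0.988) too. Over all libraries, the largest gap between neighbours was 1.15 of a range of 6.26 log2 units for Arr1 and 0.72 of 4.65 for Arr2. It was 0.74 of 5.73 for ninaC and 0.63 of 3.60 for chp. A few brains in between can close such a gap, so it cannot decide whether the levels form classes, which was not tested.

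trp followed the other 4 more loosely. It rested on 52 to 208 reads in a library (median 98), and the part of counting error in its correlations was not tested. Its r was 0.505 with Arr1, 0.524 with Arr2, 0.511 with ninaC and 0.476 with chp, with adjusted permutation p of 0.00897 to 0.0171 and rho of 0.501 to 0.529. Within round 3 its r was 0.423 to 0.465, with adjusted permutation p of 0.188 to 0.205, and without removal of group means it was 0.195 to 0.330. Within groups the r of trp ran from 0.142 to 0.238 in gamergates with GFP siRNA and from 0.567 to 0.754 in the other 3 groups.

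**Figure D3:**
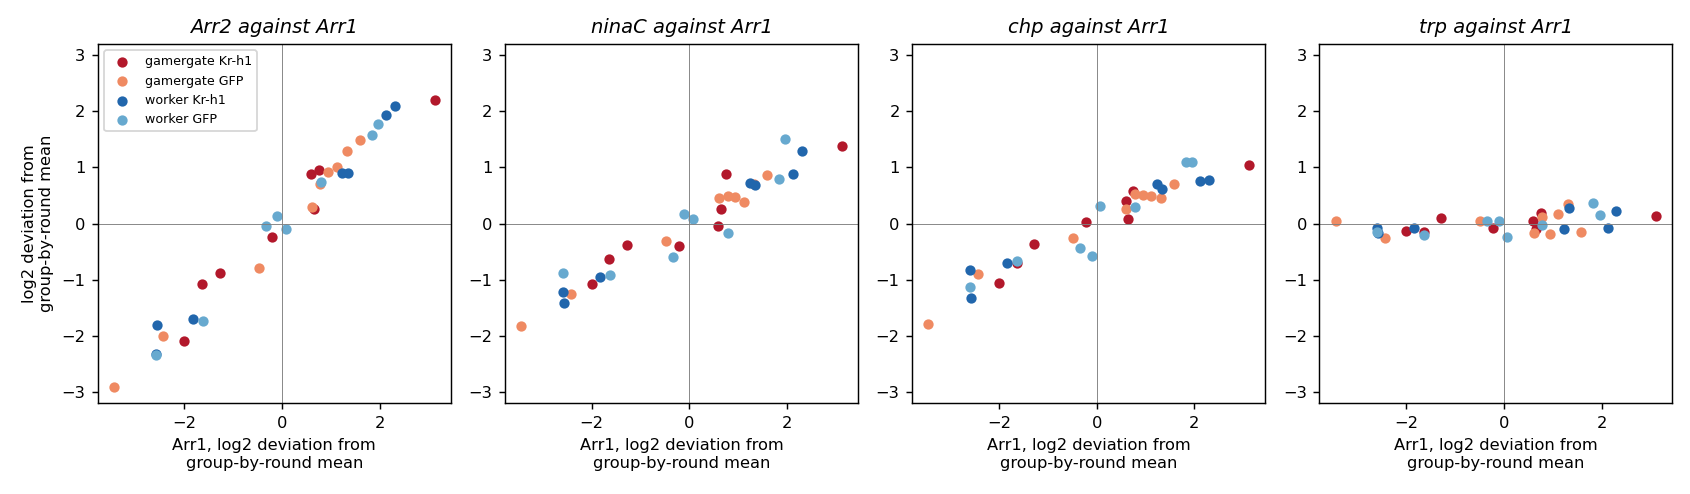
Deviation of each library from the mean of its group and round, in log2 units, for Arr2, ninaC, chp and trp (y axes) against Arr1 (x axes), with 1 point per brain coloured by group. Arr2, ninaC and chp rise along a line with Arr1 in all 4 groups (r of 0.988, 0.963 and 0.964), while trp stays close to 0 on its axis.

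No relation of these levels to depth or to Kr-h1 passed a test; these relations were chosen after the levels were seen. Pearson's r between the log2 number of recovered reads and the level, both as deviations from group-by-round means, was 0.102 for Arr1, 0.0944 for Arr2, 0.129 for ninaC, 0.142 for chp and -0.0568 for trp (n = 32, rho of -0.0418 to 0.186). The level of the targeted gene Kr-h1 had an r of -0.0482 with Arr1, -0.0644 with Arr2, -0.0201 with ninaC, -0.0988 with chp and 0.203 with trp (rho of -0.0290 to 0.193). None of these 10 relations had an adjusted permutation p below 0.906 for r or below 0.971 for rho. Without the 2 libraries farthest from the median of the x measure, r stayed between -0.0812 and 0.156. Within round 3 the r with Kr-h1 was 0.521 to 0.610 for the 4 genes other than trp, and within round 2 it was -0.284 to -0.175, values for which no test was made.

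Some other genes of the eye shared the profile. Of 9428 other genes, 21 had an r of at least 0.9 with the mean profile of the 5 genes, 54 had at least 0.8, and the median r was -0.02. These r values describe likeness over the 32 libraries and carry no test. The 10 closest genes included Lop2 (0.955), a long-wavelength opsin gene, Gbeta76C (0.959), the eye-specific beta subunit of the Gq protein in flies, ninaB (0.961), which makes the retinal chromophore from carotenoids, and tan (0.959), a hydrolase that frees histamine in photoreceptors. Culd (0.969), which in flies takes part in the uptake of rhodopsin and TRPL from the rhabdomere, was among them too, and the other 5 carried no name other than their number (LOC105187992, LOC105187998, LOC105180703, LOC105185342 and LOC105182692). With no group means removed, 9 of these 10 were again among the closest 10.

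Gene by gene, Arr1 and Arr2 were each other's closest gene among those that passed the filter. Next came LOC105180703 for both (0.983 with Arr1 and 0.981 with Arr2). With no group means removed, LOC105187992 (0.969) and LOC105180703 (0.964) were closer to Arr1 than Arr2 was (0.957). ninaC was closest to LOC105187992 (0.974), Culd (0.972) and LOC105182692 (0.968), and chp to Lop2 (0.974), LOC105187992 (0.971) and tan (0.968). For trp, 0 genes reached 0.9, and its closest were nahoda (0.676), LOC105181910 (0.663) and LOC105192455 (0.645). With no group means removed, these had an r of 0.351, 0.281 and 0.232 with trp, and none was among its closest 3.

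The opsins, the receptors of the pathway, fell into 2 kinds. Lop2 ran from 2.44 over a median of 14.6 to 40.9 FPKM in gamergates with Kr-h1 siRNA, and from 2.25 over 30.7 to 48.6 FPKM in gamergates with GFP siRNA. Worker brains held from 2.95 over 37.8 to 50.1 FPKM with Kr-h1 siRNA and from 4.04 over 9.17 to 57.0 FPKM with GFP siRNA. Lop2 and the ultraviolet opsin gene Uvop (r = 0.939 with the mean profile) went with the arrestins, while Lop1 (0.0303) and Rh5 (-0.0517) did not.

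Lop1, another long-wavelength opsin gene, ran from 6.08 over a median of 13.1 to 42.5 FPKM in gamergates with Kr-h1 siRNA, and from 3.43 over 17.6 to 27.1 FPKM in gamergates with GFP siRNA. In workers it ran from 11.6 over 25.7 to 70.0 FPKM with Kr-h1 siRNA and from 17.4 over 99.0 to 189.9 FPKM with GFP siRNA. It was lower in gamergates than in workers with GFP siRNA (-3.18, adjusted p = 0.00461, limma), as was Rh5 (-2.11, adjusted p = 0.00922). Lop2 (1.17 ± 0.97) and Uvop (0.62 ± 0.60) did not pass in that comparison. The calls of Lop1 and Rh5 were lost in a fit to the GFP siRNA libraries alone, and that of Rh5 without replicate 8 of the workers with GFP siRNA (adjusted p = 0.0576). Lop1 and Lop2 are opsins of 1 kind, and how the authors' counting treated reads that match both is not given in the sources used here.

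The G protein subunits were split in the same way. Gbeta76C ran from 1.15 over a median of 8.49 to 18.2 FPKM in gamergates with Kr-h1 siRNA, and from 1.57 over 14.9 to 39.1 FPKM in gamergates with GFP siRNA. Worker brains held from 0.606 over 13.1 to 17.3 FPKM with Kr-h1 siRNA and from 1.34 over 5.25 to 15.6 FPKM with GFP siRNA. The alpha subunit gene Galphaq stayed between 33.3 and 69.0 FPKM over all libraries, with an r of 0.105 to the mean profile, and Ggamma30A, the gene of the gamma subunit, stayed between 41.4 and 92.1 FPKM with an r of 0.293. In flies Galphaq also serves receptors outside the eye.

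**Figure D4:**
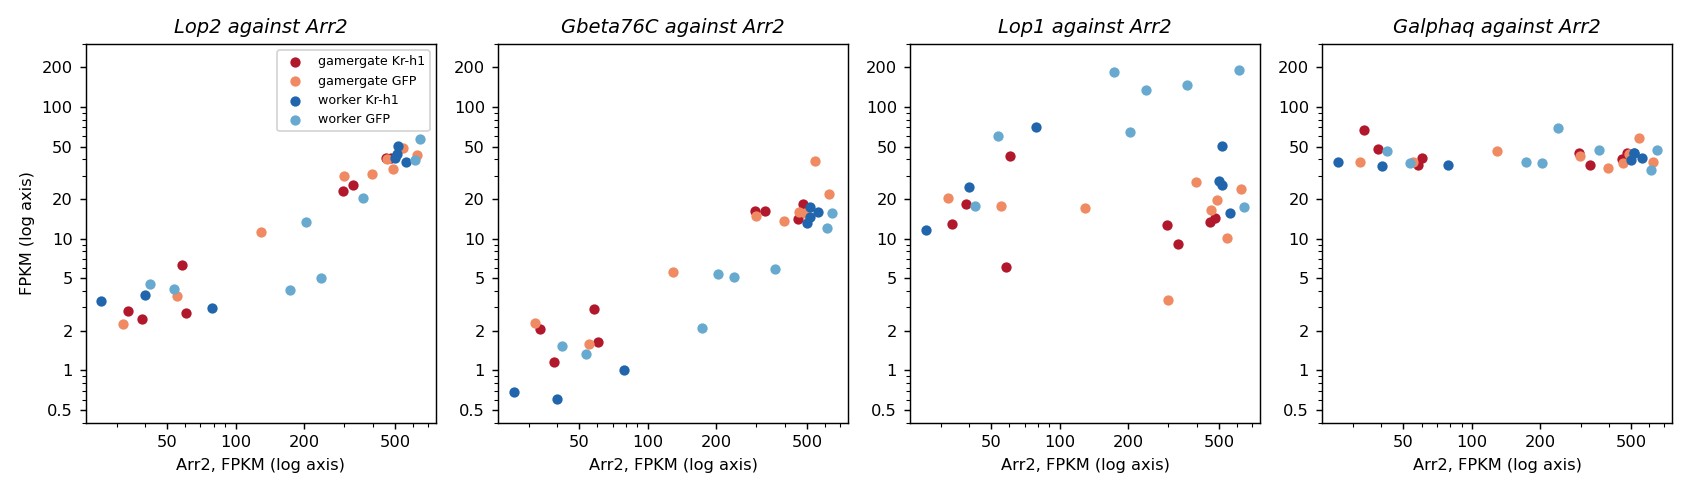
FPKM (log axes) of the opsin genes Lop2 and Lop1 and of the G protein genes Gbeta76C and Galphaq against Arr2, with 1 point per brain coloured by group. Lop2 and Gbeta76C climb with Arr2 in each group, Galphaq stays between 33.3 and 69.0 FPKM, and Lop1 reaches 189.9 FPKM in workers with GFP siRNA.

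Of the 12 genes tested in the list of the transduction core, 2 had an r of at least 0.9 with the mean profile, Gbeta76C and stops (0.901), a gene needed for normal phospholipase C levels in fly photoreceptors. Other symbols planned for that list, norpA, inaC, inaD and rdgC among them, had no match in the annotation. Their ant counterparts were therefore not examined by name. The most abundant genes of that list, the kinase gene Pkc53E (-0.0890) and Ggamma30A, did not follow it, nor did krz (-0.375), the gene of the non-visual arrestin, which stayed between 16.5 and 42.2 FPKM. Of 5 channel and calcium handling genes none had an r above 0, with -0.242 and -0.228 for the most abundant ones, the sodium/calcium exchanger genes Nckx30C and Calx. Trpgamma, a TRP channel gene related to trp, had an r of -0.488 and stayed between 5.82 and 13.5 FPKM, and trpl, the partner channel of trp in fly photoreceptors, was below the filter with a highest value of 1.04 FPKM.

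Among 9 tested genes for rhabdomere structure and adhesion, prom, a gene for a microvillar membrane protein, had an r of 0.932. It was the only gene of that list with an r of at least 0.5, and the median of the list was -0.169. The level of prom was low, at 0 to 1.64 FPKM. Among 8 retinal development genes, boss, the ligand of the sevenless receptor, had 0.914 and its receptor gene sev had -0.536. Among 8 genes for histamine transmission, tan, the histamine-gated chloride channel gene HisCl1 (0.856) and the carcinine transporter gene CarT (0.701) had an r above 0.5, and Hdc, which makes histamine, had 0.456. None of the 5 screening pigment genes tested (vermilion, car, lt, rb and or) exceeded 0.342. The pigment gene cn was below the filter, and the symbols w, st and bw had no match. The lists were assembled by fly symbol with earlier results of these data known.

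**Figure D5:**
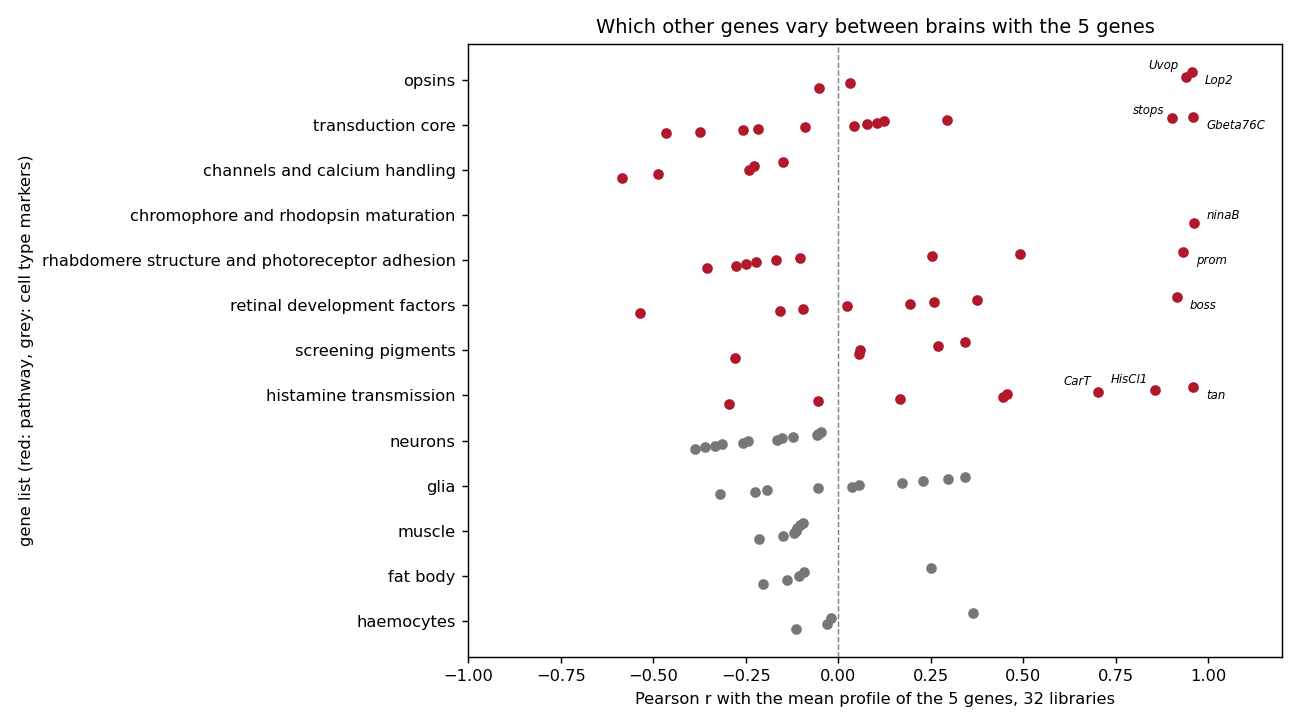
Pearson's r of each tested list gene with the mean profile of the 5 genes over the 32 libraries, with pathway lists in red and cell type marker lists in grey, and genes with an r of at least 0.5 named. The 10 named genes belong to pathway lists, and no marker of neurons, glia, muscle, fat body or haemocytes exceeds 0.364.

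No marker of another cell type reached an r of 0.5 with the profile. Its r with 12 neuronal markers ran from -0.386 to -0.0478, with 10 glial markers from -0.319 to 0.341, with 7 muscle markers from -0.213 to -0.0969, with 5 fat body markers from -0.205 to 0.250 and with 4 haemocyte markers from -0.115 to 0.364. In gamergates the summed level of the 4 opsin genes was 16.1 to 65.1 FPKM with Kr-h1 siRNA and 24.7 to 78.6 FPKM with GFP siRNA, and in workers it was 17.5 to 106 FPKM with Kr-h1 siRNA and 27.0 to 252 FPKM with GFP siRNA. None of the 4 was at 0 in any library. The part that the amount of photoreceptor tissue in a dissected brain has in these levels was not tested.

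In the 5 comparisons the pathway lists showed calls in 3. In workers, 0 of the 52 tested genes of the 8 lists passed the test of the knockdown. In gamergates, Optix, an eye-field homeobox gene (-0.62, adjusted p = 0.0451, limma), and sev, the sevenless receptor gene (-0.94, adjusted p = 0.0252), were lower with Kr-h1 siRNA, and the median of the 8 retinal development genes was -0.41 against 0.01 over all genes. The levels of sev were 5.85 ± 1.88 FPKM with Kr-h1 siRNA (SD, n = 8) and 11.4 ± 3.79 FPKM with GFP siRNA (SD, n = 9), with overlapping ranges of 3.45 to 8.48 and 7.50 to 17.3 FPKM. This comparison called 0.721% of all genes tested. The calls of Optix and sev were both lost in either round alone and without the batch term, and that of Optix also with no filter. Leaving out single libraries ended the call of Optix in 23 of 32 fits and that of sev in 9. Among markers of other cell types, Fatp3 of the fat body list was lower in the same comparison (-0.57, adjusted p = 0.0451), and its part in these calls was not tested.

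None of the other 7 pathway lists had a call for the knockdown in gamergates, and their medians ran from -0.52 for the single chromophore gene ninaB to 0.06 for the screening pigments. For gamergate minus worker with GFP siRNA, the other genes that passed were sev (1.03), Cad74A (0.92), a cadherin gene, and ine (0.52), a transporter gene, all higher in gamergates, while the median of the opsins was -0.75 and that of the histamine list 0.48, against -0.01 over all genes. These 3 calls were lost with round 3 only, where castes shared a run, and with the groups of the contrast only. With 1 library left out, the call was kept in 26 of 32 fits for sev, 22 for Cad74A and 14 for ine. The calls of Cad74A and ine were also lost with no filter, and that of ine with the replicate block. In that comparison, which called 1.33% of all genes tested, 4 of 10 glial markers were higher in gamergates, Gat-a (1.03), Eaat-2 (0.99), Gat-1B (0.74) and ine, which stands in both lists. The summed level of the glial list was 1074 to 1941 FPKM in gamergates with GFP siRNA and 779 to 1317 FPKM in workers with GFP siRNA, and its part in these calls was not tested. None of the 52 genes passed for gamergate minus worker with Kr-h1 siRNA.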

How the data were processed

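FPKM values for 14001 genes in 32 single-brain libraries were made and deposited by the authors. The submitters' processing notes list the tools STAR, featureCounts, DESeq2 and bcl2fastq without versions or roles. Libraries were strand-specific, per the labels' protocols; the sources used here do not name the genome build, the annotation or the strand setting of the counting. Of the identifiers, 13989 matched the RefSeq annotation Hsal_v8.6, used for symbols only, and 12 did not. The 5 genes and all gene lists were chosen with earlier results of these data known. Beyond these 5 genes, the text names list genes that passed a test or are the most abundant of a list, the genes with the highest r, and list genes with an r of at least 0.5, which were chosen after their values were seen, as were Galphaq, Hdc, krz, Trpgamma and trpl. Of the cell type markers it names nSyb, repo and those that passed a test beside a pathway call.

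Whole reads were recovered from the steps between FPKM values of a gene: all 12692 genes detected in at least 3 libraries gave whole reads within 0.01 of a read. Even numbers made up 55.1% of the nonzero reads, so single reads may not all stand for separate fragments. Read numbers limit precision through counting error only.

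Values were taken as log2(FPKM + 0.5), which understates changes of low genes. A gene was tested where 7 or more libraries reached an FPKM of 1, which kept 9433 genes. limma 3.58.1 in R 4.3.3 fitted 4 groups and a batch term of 3 levels (round and run, from the labels) to all libraries, with a trended eBayes and Benjamini-Hochberg adjustment over all 9433 genes; a call is an adjusted p under 0.05. Intervals are at 95%. The fit was tested on simulated data. Within rounds, exact two-sided permutation tests were made (scipy 1.17.1). Correlations used deviations from the means of the groups within each round, and 100000 permutations within them. The libraries are single ants, per the labels. Replicate numbers were not taken to pair libraries between the siRNA groups. Alternatives covered the pseudocount, filter, scaling, batch term, replicate block, the libraries used, array weights and each library left out; limma voom on the recovered reads was added after the data were seen.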

Additional observations from a re-analysis of the deposited data

Results flagged for a closer look

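The levels of the 5 genes gave no library that stood apart from its group by Dixon's test, in 20 combinations of gene and group. Among the other genes of the pathway lists, which reach beyond light sensing itself, 7 had a knockdown effect that differed between gamergates and workers. This was read from the interaction term of limma (adjusted p under 0.05). The difference of gamergates minus workers was 1.30 for Rh5, -0.39 for Moe, -0.63 for eya, -1.02 for Optix, -0.89 for sev, 0.37 for car and -0.44 for ine on the log2 scale. The adjusted p ran from 0.0155 for Optix to 0.0492 for Rh5, in a comparison that called 16.5% of all genes tested. These 7 were a smaller share than that of the tested pathway list genes, so the calls do not set the lists apart. All 7 calls were lost in round 2 alone, in round 3 alone and without the batch term. The replicate block also ended the calls of Rh5, Moe, car and ine, array weights those of Rh5, Moe, sev, car and ine, voom those of Rh5, Moe and car, and no filter those of Rh5, Moe, car and ine; that of Rh5 was lost with a pseudocount of 0.1 too. In the fits that left out 1 library, the call was kept in 32 of 32 for Optix, 31 for eya, 29 for sev, 18 for ine, 12 for car, 8 for Moe and 7 for Rh5. Of the cell type markers, the neuronal gene para (-0.44), the glial gene Nrx-IV (-0.67) and the haemocyte gene Ppn (-0.77) passed in the same comparison, and ine stands in the glial list too; their part in these calls was not tested.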

How the results depend on the processing

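Over the 25 differences of the 5 genes, 273 values under other settings were computed, of which 259 kept direction and side of the threshold, 12 changed sign and 2 crossed the threshold. The sign changes all concern differences that did not pass, and their cause was not tested. In workers, Arr1 gave -0.31 with round 2 only and -0.060 with array weights, and Arr2 gave 0.62 with round 3 only. In gamergates with round 3 only, Arr1 gave 0.19, Arr2 0.018 and trp 0.14, and trp gave 0.056 with array weights. The difference between the castes' knockdown effects was 0.036 for Arr2 with array weights and 0.020 for trp with round 3 only. Gamergate minus worker with Kr-h1 siRNA was -0.20 for Arr1 without the batch term, and with array weights 0.30 for Arr2 and 0.24 for chp. Without the batch term, chp (1.00) and trp (0.36) passed for gamergate minus worker with GFP siRNA.

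Leaving out 1 library at a time gave 800 values, of which 28 changed sign and 0 crossed the threshold of limma. In workers Arr1 ran from -0.11 to 0.80 and Arr2 from -0.56 to 0.31, and in gamergates trp ran from -0.11 to 0.0023. Gamergate minus worker ran from -0.25 to 1.01 for Arr2 with GFP siRNA, and with Kr-h1 siRNA from -0.42 to 0.77 for Arr1, -0.61 to 0.22 for Arr2 and -0.46 to 0.16 for chp.

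The correlations of trp no longer passed with no means removed (r of 0.199 with Arr1, 0.195 with Arr2, 0.256 with ninaC and 0.330 with chp) and with round 3 only (0.423, 0.465, 0.428 and 0.423 in the same order), while the 6 correlations among the other 4 genes passed under these settings.

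Counts of calls over all genes moved widely. For the knockdown in gamergates 68 genes were called, against 820 with array weights, 204 with the groups of the contrast only, 105 with the stricter filter, 30 with voom, 11 with no filter, 11 with round 2 only, 6 with round 3 only, 0 without the batch term and 0 to 874 with 1 library left out. For the knockdown difference 1554 were called, against 817 with array weights, 0 with round 2 only, with round 3 only and without the batch term and 399 to 2194 with 1 library left out. For gamergate minus worker with GFP siRNA 125 were called, against 4436 without the batch term, 1106 with array weights, 81 with no filter, 45 with round 3 only, 0 with the groups of the contrast only and 26 to 236 with 1 library left out. With Kr-h1 siRNA 16 were called, against 395 with array weights, 68 with round 3 only, 26 with voom, 9 with the stricter filter, 6 with no filter, 3 with the replicate block, 0 with the groups of the contrast only and 2 to 71 with 1 library left out. Array weights called 5 genes for the knockdown in workers, against 0. Replicate numbers were not taken to pair the libraries: over 15 pairs the correlation of deviations ran from -0.41 to 0.44, with 6 above 0.1. These mixed values cannot decide whether some of the numbers pair libraries. With the replicate block, 113 genes were called for the knockdown in gamergates, 698 for the knockdown difference and 53 for gamergate minus worker with GFP siRNA, and no call of the 5 genes changed. Under the stricter filter on low values some of the 5 genes gave no value. For ninaC, with as few as 6 reads in a library, and for trp, with as few as 52, depth limits what the levels can show.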

Other observations

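The ratio of Arr1 to Arr2, computed after the levels had been seen, had a median of 0.159 in gamergates with Kr-h1 siRNA, 0.170 in gamergates with GFP siRNA, 0.106 in workers with Kr-h1 siRNA and 0.0759 in workers with GFP siRNA. In round 3, where castes shared a run, it was 0.116 to 0.232 in 5 gamergates with GFP siRNA and 0.0750 to 0.107 in 3 workers with GFP siRNA, a log2 difference of 1.01 with no overlap. The exact two-sided permutation p was 0.0357, the smallest that 5 against 3 brains allow, and the adjusted p over the 60 ratio tests made was 0.623. The only other test without overlap was Arr1 to ninaC between castes with Kr-h1 siRNA in round 3. That ratio was 33.6 to 68.8 in 4 gamergates and 14.6 to 28.0 in 3 workers (log2 difference 1.13, exact permutation p = 0.0571, adjusted p = 0.623). Whether these ratios follow the level of the genes was not tested. The ratio of Arr1 to ninaC in round 3 gamergates was 33.6 to 68.8 with Kr-h1 siRNA and 22.7 to 38.0 with GFP siRNA (log2 difference 0.74, exact permutation p = 0.0317, adjusted p = 0.623). In round 2 gamergates the direction was the opposite, at 7.81 to 24.3 with Kr-h1 siRNA and 12.0 to 26.1 with GFP siRNA (log2 difference -0.41, exact permutation p = 0.4, adjusted p = 0.774). None of these passed the correction, and of the 60 tests none did.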
